A study of Mus musculus with 12 samples.

Results

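The genes described here are the interleukins and their receptors, secreted signals of the immune system and the proteins that bind them, in left ventricles of adult mice lacking Nkx2-5 in trabecular myocardium. The members were all array probes whose gene symbol is Il followed directly by a digit, 105 of 55681 probes, which stand for 83 of 34844 gene names. By role, 38 of the 83 genes encode ligands, 40 receptor chains or receptor-like proteins, 4 antagonists or binding proteins and 1 an enzyme. Genes of the same signalling families that carry another kind of name, such as Lif, Csf1 or Ebi3, are not members and are described separately.

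One-colour arrays measured RNA from 12 mice at an age of 6 months, with 1 mouse per array and 4 mice per group. Both mutants carried Floxed-Nkx2-5-Δneo alleles and the tamoxifen-inducible Cx40-creERT2 allele, whose Cre acts in cells that express Connexin40, among them embryonic trabecular cardiomyocytes. In Nkx2-5ΔTrbE10 mice (TrbE10, named Nkx2-5Δtrab in the labels) tamoxifen reached the pregnant female at E10.5 and E11.5, during trabecular formation, and in Nkx2-5ΔTrbE14 mice (TrbE14, named Nkx2-5Δcomp in the labels) at E13.5 and E14.5, during compaction. Controls were littermates with the floxed alleles and without the Cre allele according to the study's methods, whereas the labels call them not injected. The Cre allele therefore cannot be told apart from the loss of Nkx2-5 in any comparison with control. If the labels hold, neither can tamoxifen. Newborns were delivered by caesarean section and fostered, and the tissue was the free wall with the apex, without the septum. The tissue therefore held cells in which Cre had not acted, and fewer cells of a type and less RNA per cell cannot be told apart in it.

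Nkx2-5 itself, measured with 1 probe, had a log2 signal of 11.89 to 12.23 in controls, 11.21 to 11.67 in TrbE10 and 11.12 to 11.63 in TrbE14 hearts. Its log2 change was -0.66 (SE 0.14, adjusted p = 0.0459) in TrbE10 and -0.59 (adjusted p = 0.106) in TrbE14 hearts. Whether this probe lies in the floxed stretch was not determined. Markers of ventricular cardiomyocytes were measured for 9 of 9 genes. Atrial markers were measured for 5 of 5, so detection alone does not tell the chambers apart. The TrbE10 arrays had a slide to themselves, so slide and TrbE10 cannot be told apart, whereas TrbE14 and control shared 1 slide. Y-linked signal was present on 1 of 4 control, 2 of 4 TrbE10 and 3 of 4 TrbE14 arrays. Both mutants were compared with the same 4 control arrays.

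As background, most interleukins are made in small amounts by a few immune or stromal cells, whereas their receptors are often displayed by many cell types. Receptors of the IL-1 family signal through MyD88 and NF-κB, and most others work through JAK kinases and STAT factors. In the heart, ST2 (Il1rl1) and its ligand Il33 are known from studies of strain and fibrosis, the Il6 group from hypertrophy and injury, and Il1b and Il18 from inflammation after injury. A single receptor chain is usually shared by several cytokines, so that the chains define the families used below.

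A few probe sequences are given first, because 3 probes of Il1rl1 separate its membrane and soluble forms and because single probes carry the results for Il17re and Il3ra. Each probe is 60 bases long and lies on the sense strand of the transcript, and its first 30 bases are shown 5′ to 3′ in lower case. Positions are those of the array's own annotation on mm9.
Il17re, chr6:113420078-113420137, plus strand: gctgccaaagatgactaccaaggctcaacc
Il3ra, chr14:15187898-15187957, plus strand: agctcttgaagactgcgaggtgacgcctgt
Il1rl1, membrane form, far 3′ position, chr1:40522187-40522246, plus strand: gccattgactccttgtgtgttttcttcatg
Il1rl1, membrane form, nearer position, chr1:40520014-40520073, plus strand: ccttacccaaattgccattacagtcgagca
Il1rl1, soluble form, chr1:40504769-40504828, plus strand: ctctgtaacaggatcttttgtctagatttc

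Few interleukin genes gave a signal in the ventricle, and receptors did so more often than ligands. A gene was taken as above background in a group when 1 of its probes was well above background, as judged by the scanner's software, on at least 3 of 4 arrays. By this rule 28 of 83 interleukin genes (33.7%) were above background in control, 28 (33.7%) in TrbE10 and 27 (32.5%) in TrbE14 hearts, beside 49.3%, 49.5% and 49.7% of all gene names. In at least 1 group the rule was met by 30 genes with 33 probes, here called measured, and 26 genes were above background on all 12 arrays. No array detected 42 of the genes, and 11 were detected on some arrays without meeting the rule. Of the ligands, 9 of 38 were measured and 23 were detected on no array, whereas of the receptors 19 of 40 were measured and 16 were detected on none. Il18bp, which captures Il18, was the 1 measured gene of 4 antagonists and binding proteins, and the enzyme was Il4i1, an amino acid oxidase of immune cells, which was also measured.

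**Figure D1:**
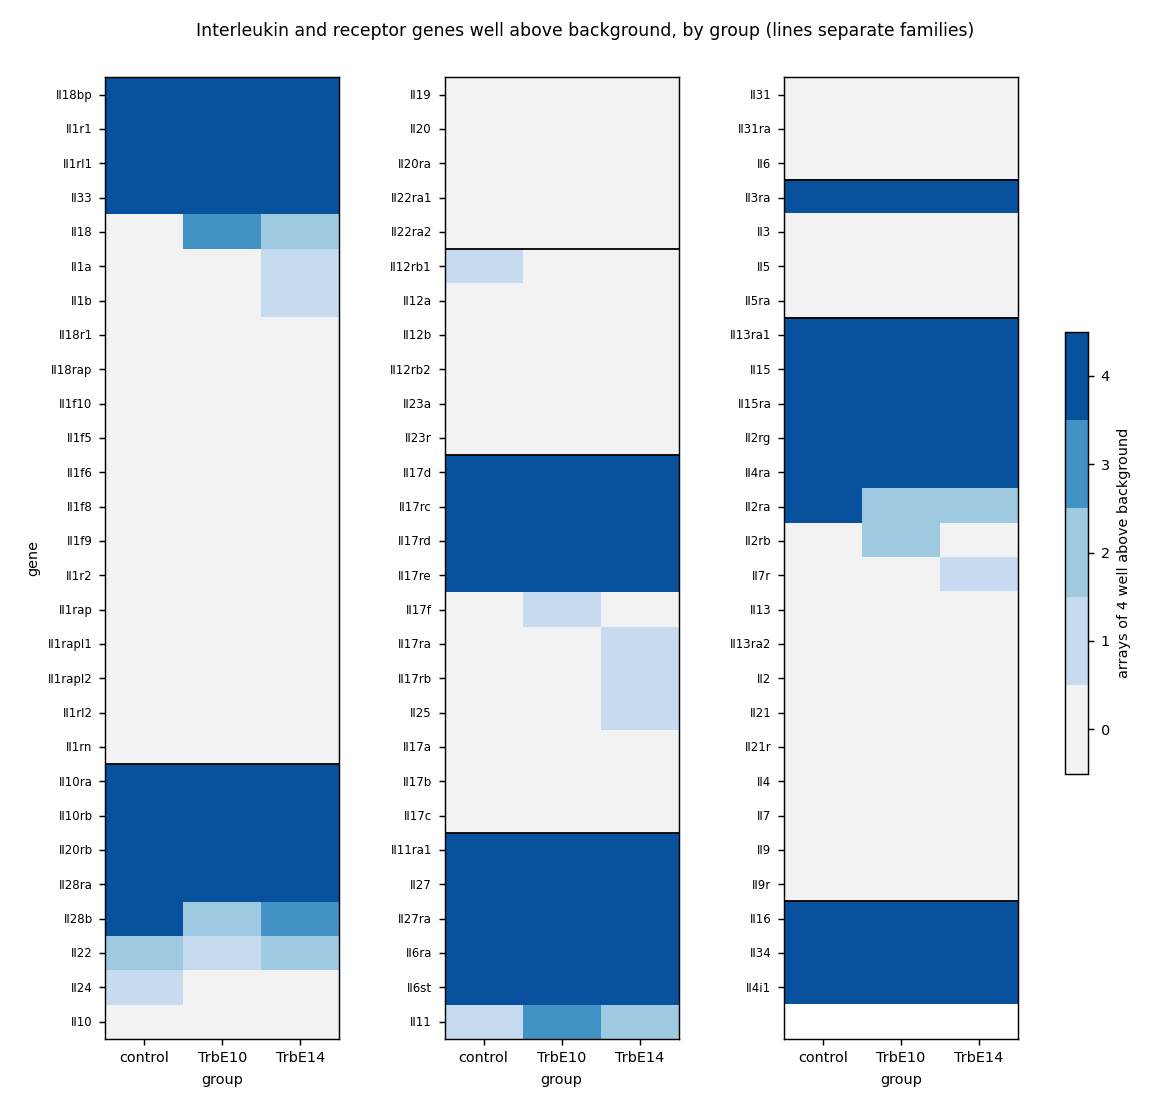
Number of the 4 arrays of each group on which a gene was well above background, for all 83 interleukin genes in rows, with the 3 groups as columns, dark blue for 4 arrays, pale grey for 0 and black lines between families. Most genes are either dark in every group (26 genes on all 12 arrays) or grey in every group (42 genes), and few differ between groups.

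The families differed in how many of their genes were measured. The Il6 group had the largest share among families of more than 3 genes, with 6 of 9 measured, including the shared signalling chain Il6st, the receptor Il6ra, Il11ra1, Il27ra and the ligands Il11 and Il27. Of the 17 genes of the common gamma chain group with Il13, 6 were measured, of the Il10 and interferon lambda group 5 of 13, of the Il17 group 4 of 11 and of the IL-1 family 5 of 20. The Il12 group had 0 of 6 measured, and of the group that shares the common beta chain Il3ra alone was measured, 1 of 4. The remaining names, Il16, Il34 and Il4i1, were all measured, 3 of 3.

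The best known inflammatory ligands were near or below background in all groups. Il6, a driver of the acute phase response, was well above background on none of the 12 arrays, although both of its receptor chains were above background on all 12. Il1b, the main secreted IL-1 cytokine, and Il1a were each above background on 1 TrbE14 array and on no other. Among their partners, the receptor Il1r1 was above background on all 12 arrays, whereas the co-receptor Il1rap (3 probes), the decoy receptor Il1r2 and the antagonist Il1rn were so on none. Neither Il10, Il3, Il2, Il4, Il13, Il12a, Il12b, Il17a nor Il17c was detected on any array. A level below background on these arrays is a limit of the arrays and does not show that the RNA is absent.

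Of the 30 measured interleukin genes, 1 passed the test between TrbE10 and control hearts, and none did so between TrbE14 and control or between the mutants. In TrbE10 hearts 387 of 18021 measured gene names were called (2.15%), beside 1 of 30 interleukin genes (3.33%). In TrbE14 hearts 137 gene names were called (0.76%) and 0 of the 30 interleukin genes, and between the mutants 0 gene names were called in all (0%). At an unadjusted p under 0.05, limma gave 8 of the 30 genes (26.7%) in TrbE10, 6 (20%) in TrbE14 and 4 (13.3%) between the mutants, beside 19.8%, 16.6% and 7.41% of all gene names. SAM, the test of the study's methods, gave 1, 0 and 0 interleukin genes.

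The median log2 change of the 30 genes was 0.11 in TrbE10 and 0.01 in TrbE14 hearts, beside -0.02 and -0.03 over all measured gene names. The sizes of the changes, regardless of sign, had a median of 0.32 in TrbE10 and 0.22 in TrbE14 for interleukin genes and of 0.15 in both for all gene names. The spread between arrays of a group was larger too, with a median SD of 0.305 for interleukin genes and 0.207 for all gene names on the log2 scale. Of the 19 measured receptors, 12 had a mean above control in each mutant, and of the 9 measured ligands 5 did so in TrbE10 and 3 in TrbE14. In TrbE10 hearts the receptors spanned changes of -0.63 to 1.63 and the ligands -0.76 to 1.14, and in TrbE14 hearts the receptors spanned -1.07 to 0.59 and the ligands -1.10 to 0.74.

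**Figure D2:**
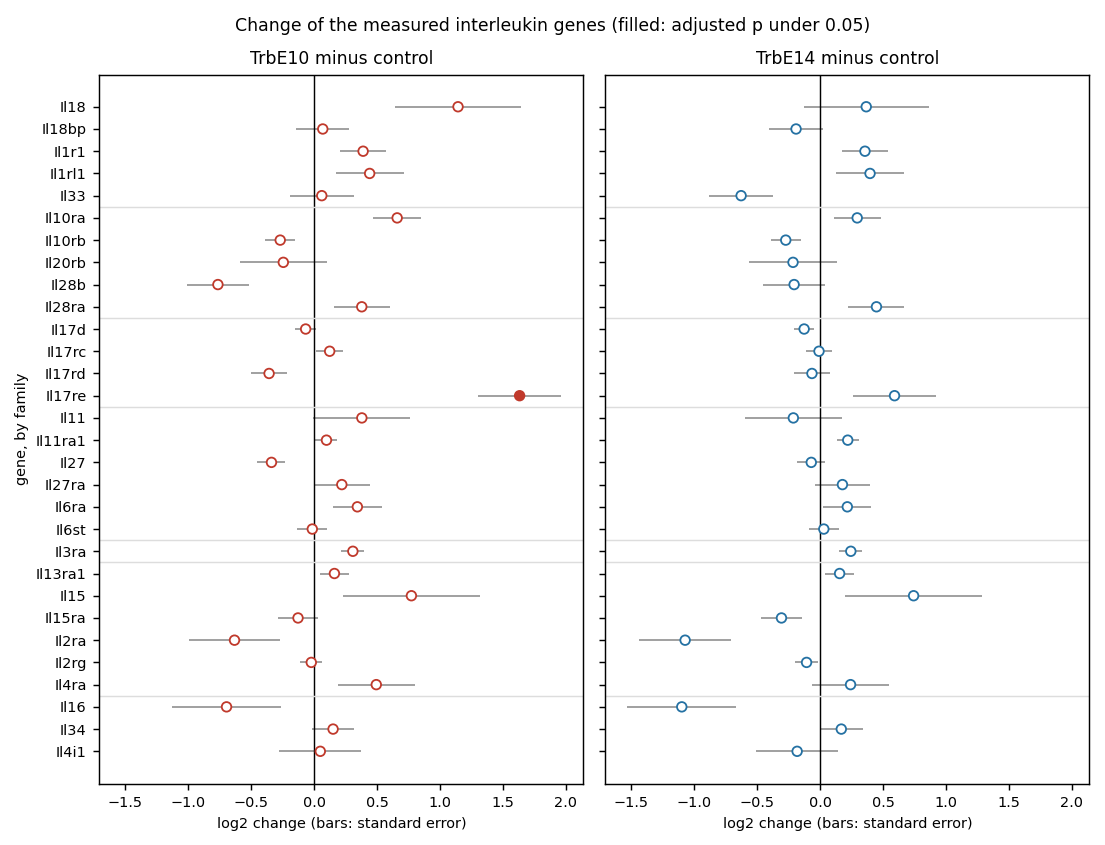
Log2 change against control (horizontal axis) of the 30 measured interleukin genes (rows, by family, separated by grey lines) in TrbE10 (left, red) and TrbE14 (right, blue), with bars for the standard error from limma and filled points for an adjusted p under 0.05. Il17re in TrbE10 is the 1 filled point, at 1.63.

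Il17re was the gene that rose. It encodes a chain that pairs with Il17ra to receive Il17c, a cytokine of epithelia. Its log2 signal was 7.59, 6.68, 6.35 and 6.63 in the 4 controls, 8.67, 8.98, 8.21 and 7.92 in TrbE10 and 7.50, 6.81, 8.08 and 7.21 in TrbE14 hearts. Every TrbE10 array lay above every control array, and the TrbE14 arrays lay between and overlapped with both groups.

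The log2 change of Il17re was 1.63 (SE 0.33, n = 4 against 4, adjusted p = 0.0357) in TrbE10 and 0.59 (adjusted p = 0.452) in TrbE14, and TrbE10 exceeded TrbE14 by 1.04 (adjusted p = 0.675). All 4 TrbE10 arrays were on the other slide, and the part of the slide in this change was not tested. The call did not hold in a fit of TrbE10 and control alone (adjusted p = 0.0530), without a filter on dim probes (0.0999), with the replicate number as a block (0.0643) or when 1 of 8 arrays was left out, namely TrbE10 replicate 1, 2 or 3, TrbE14 replicate 1 or 4, or control replicate 2, 3 or 4 (0.0501 to 0.0979), and its log2 change was 1.24 to 1.63 over the other settings and 1.45 to 1.89 with an array left out.

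The other parts of this receptor system were low or did not pass the test. The partner chain Il17ra was above background on 1 array, of TrbE14, and the ligand Il17c on none. Il17rc, a receptor chain for Il17a and Il17f encoded next to Il17re on chromosome 6, had log2 changes of 0.12 (adjusted p = 0.613) in TrbE10 and -0.01 (adjusted p = 0.976) in TrbE14. Il17rd, a chain that also restrains fibroblast growth factor signalling, had changes of -0.36 (adjusted p = 0.247) and -0.07 (adjusted p = 0.857), and the ligand Il17d had -0.07 and -0.13. Among 4 measured members of this family, Il17re thus had the 1 call.

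Besides Il17re, a few receptors and the ligand Il28b separated a mutant from control on every array without passing the test. In TrbE10 hearts 5 of 30 interleukin genes (16.7%) had arrays that did not overlap with control, Il17re, Il10ra and Il3ra above and Il10rb and Il28b below, beside 10.6% of all gene names. In TrbE14 hearts 2 of 30 (6.67%) did so, Il3ra above and Il2ra below, beside 10.1% of all gene names. Among so few genes these counts lie near the background, so the genes are given below as a description.

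Il3ra, the alpha chain of the Il3 receptor, lay above all controls in both mutants. Its log2 signal was 9.30, 9.37, 9.41 and 9.42 in controls, 9.62, 9.62, 9.68 and 9.81 in TrbE10 and 9.68, 9.53, 9.81 and 9.44 in TrbE14 hearts. The lowest TrbE14 array was close to the highest control. The log2 change was 0.31 (SE 0.09, adjusted p = 0.126) in TrbE10 and 0.24 (SE 0.09, adjusted p = 0.288) in TrbE14. This is a small difference on a probe with little spread, a within-group SD of 0.112.

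Il10ra and Il10rb, the chains of the Il10 receptor, had means on opposite sides of control. Il10ra, the chain that binds Il10, had log2 signals of 6.45, 7.07, 7.00 and 7.04 in controls, 7.30, 7.26, 7.89 and 7.75 in TrbE10 and 7.32, 7.35, 6.85 and 7.21 in TrbE14. Control replicate 1 was the lowest of the 12, and the TrbE10 arrays were all above the controls. The change was 0.66 (SE 0.19, adjusted p = 0.110) in TrbE10 and 0.29 (adjusted p = 0.505) in TrbE14.

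Il10rb is shared with the receptors for Il22 and the interferon lambdas. It had log2 signals of 10.91, 10.89, 11.24 and 10.94 in controls, 10.85, 10.81, 10.53 and 10.70 in TrbE10 and 10.82, 10.93, 10.55 and 10.58 in TrbE14. The TrbE10 arrays were below all controls, and 1 TrbE14 array reached them. Its change was -0.27 in both mutants (SE 0.12, adjusted p = 0.295 and 0.350).

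Il28b, an interferon lambda now named Ifnl3, and Il2ra, the alpha chain of the Il2 receptor, were dim. Il28b was above background on 4 control, 2 TrbE10 and 3 TrbE14 arrays, with log2 signals of 5.44 to 6.05 in controls, 4.79 to 5.27 in TrbE10 and 4.73 to 6.00 in TrbE14. Its change was -0.76 (SE 0.25, adjusted p = 0.158) in TrbE10 and -0.21 (adjusted p = 0.724) in TrbE14, and it passed the test in TrbE10 when TrbE14 replicate 4 was left out (adjusted p = 0.0499). With normexp background correction, which adds an offset to each signal, the change in TrbE10 was -0.31. Its receptor chain Il28ra, now named Ifnlr1, had changes of 0.38 (adjusted p = 0.431) and 0.45 (adjusted p = 0.399).

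Il2ra was above background on 4 control, 2 TrbE10 and 2 TrbE14 arrays. Its log2 signals were 5.30, 5.51, 6.23 and 5.87 in controls, 5.09, 4.93, 4.54 and 5.82 in TrbE10 and 5.30, 5.18, 3.79 and 4.35 in TrbE14. The highest TrbE14 array lay just under the lowest control, and 1 TrbE10 array lay among the controls. Its change was -0.63 (SE 0.36, adjusted p = 0.419) in TrbE10 and -1.07 (adjusted p = 0.254) in TrbE14, and with normexp it was -0.21 and -0.26. Il2rb was above background on 2 TrbE10 arrays alone, and Il2rg, the common gamma chain, on all 12 with changes of -0.02 and -0.11. Of 11 markers of T and innate lymphoid cells, 7 were measured and 0 were called by limma, and Cd8a was on no array. In TrbE10 and TrbE14, 1 and 2 had an unadjusted p under 0.05. Of the 7, 5 had a mean above control in TrbE10 and 3 in TrbE14, with median log2 changes of 0.16 and -0.07. Bright genes weigh most in the summed linear signal of this list. It was 1928 to 2456 in controls, 1498 to 1798 in TrbE10 and 1469 to 1811 in TrbE14 hearts. The part of these cells in the Il2ra signal was not tested.

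**Figure D3:**
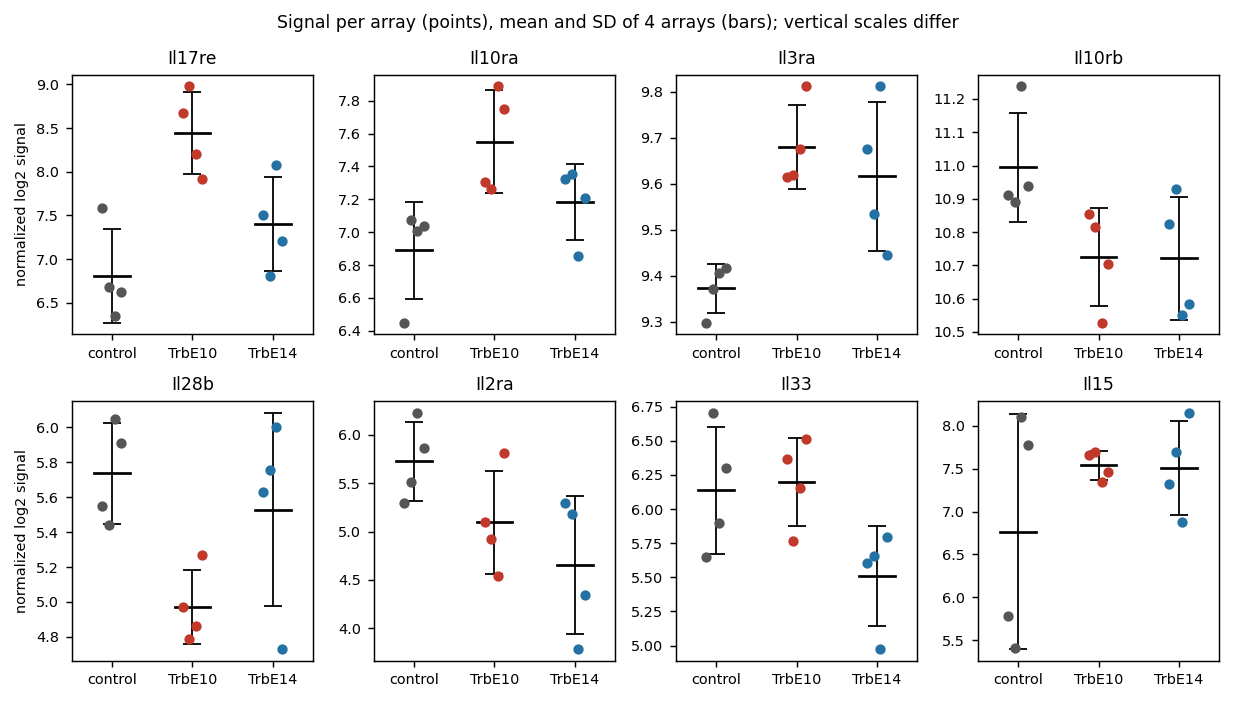
Normalized log2 signal (vertical axis, its range differs between panels) of 8 interleukin genes on each array (points) by group, with the mean (line) and SD (bar) of 4 arrays. The TrbE10 arrays of Il17re lie at 7.92 to 8.98, above the controls at 6.35 to 7.59, and the controls of Il15 lie in a low and a high pair.

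Il33 and its receptor were above background on every array, and neither passed the test. Il33 is an alarmin stored in the nucleus of stromal and endothelial cells. Its log2 signal was 5.65, 6.71, 5.90 and 6.30 in controls, 6.36, 5.76, 6.15 and 6.51 in TrbE10 and 5.60, 5.66, 4.98 and 5.80 in TrbE14 hearts. The TrbE14 arrays were low and overlapped with the lowest control, and the TrbE10 arrays lay among the controls. The change was 0.06 (SE 0.25, adjusted p = 0.936) in TrbE10 and -0.63 (SE 0.25, adjusted p = 0.319) in TrbE14.

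The probes of Il1rl1 differed in detection. Of the 3 probes shown above, the far 3′ probe of the membrane form, which starts at base 4998 of its transcript, was above background on 12 of 12 arrays. The probe at base 2825 of the same transcript and the probe of the soluble form, at base 2563 of its own, were above background on 0 of 12. The membrane and soluble forms come from different promoters and last exons of 1 gene, and the soluble form is a decoy that binds Il33 in the circulation. Since both probes of the membrane form match the same transcript, its detection rests on 1 of 2 probes.

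The detected Il1rl1 probe had log2 signals of 6.02, 5.11, 5.22 and 5.16 in controls, 6.18, 5.60, 5.35 and 6.13 in TrbE10 and 6.17, 6.03, 5.27 and 5.62 in TrbE14. Control replicate 1 lay with the higher mutant arrays, and the other controls lay below all mutant arrays. Its change was 0.44 (SE 0.27, adjusted p = 0.450) in TrbE10 and 0.40 (adjusted p = 0.528) in TrbE14. The co-receptor Il1rap, which this receptor needs for signalling, was below background on every array with 3 probes.

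**Figure D4:**
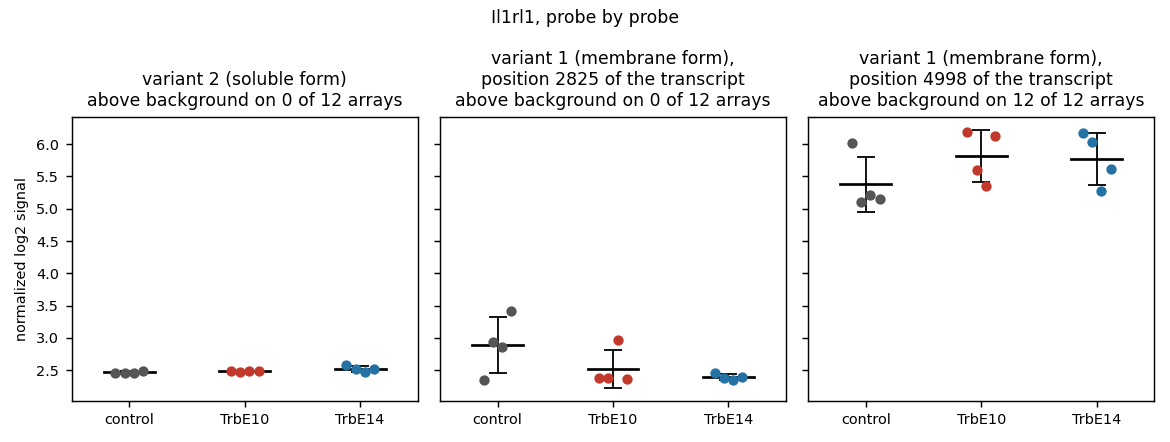
Normalized log2 signal (vertical axis, shared) of the 3 Il1rl1 probes on each array (points) by group, with mean (line) and SD (bar) of 4 arrays. The 2 left probes were above background on 0 of 12 arrays and the right one, at base 4998, on 12 of 12. Levels of different probes are not comparable with each other.

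Il18, an inflammasome product, was well above background on 0 control, 3 TrbE10 and 2 TrbE14 arrays. Its log2 signal was 4.18, 4.77, 3.96 and 3.44 in controls, 5.75, 5.43, 5.00 and 4.74 in TrbE10 and 5.02, 5.52, 2.87 and 4.41 in TrbE14 hearts. Control replicate 2 lay above TrbE10 replicate 4, and the TrbE14 arrays overlapped with both other groups. The gene passed the filter through TrbE10 alone and is given by name for that pattern, so its difference is a description. With each control array raised to no less than its lowest signal well above background, the TrbE10 mean was 1.54-fold above the control mean. That bound holds for the main processing only. The fitted log2 change was 1.14 with an adjusted p of 0.285. The change was 0.23 with normexp and 0.22 in the authors' values, and without TrbE10 replicate 1, 2 or 3 the gene did not pass the filter. The receptor chains Il18r1 and Il18rap were on no array. Il18bp had changes of 0.07 (adjusted p = 0.904) in TrbE10 and -0.19 (adjusted p = 0.701) in TrbE14.

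Among the other measured members the mutant arrays overlapped with control. Il16, a chemoattractant for CD4+ cells, and Il15, a survival factor for natural killer and memory T cells, were singled out after their values were seen. Il16 had log2 signals of 7.12, 7.47, 7.60 and 7.50 in controls, 6.90, 7.17, 7.13 and 5.70 in TrbE10 and 7.14, 7.05, 5.27 and 5.83 in TrbE14, with changes of -0.70 (adjusted p = 0.458) and -1.10 (adjusted p = 0.305). The lowest 3 arrays, 1 of TrbE10 and 2 of TrbE14, stood far below the others. Il15 had log2 signals of 5.78, 5.41, 8.11 and 7.77 in controls, so 2 controls were low and 2 high, and of 7.35 to 7.69 in TrbE10 and 6.87 to 8.15 in TrbE14. Its within-group SD of 0.856 was larger than that of 97.6% of all gene names.

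The receptor chains of Il6 and Il1b did not pass the test either. Il6ra had changes of 0.34 (adjusted p = 0.407) and 0.22 (adjusted p = 0.626), and Il6st, used by most cytokines of the group, -0.01 (adjusted p = 0.968) and 0.03 (adjusted p = 0.927). Il1r1 had 0.39 (adjusted p = 0.319) and 0.36 (adjusted p = 0.410).

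Among relatives of the interleukins without an Il name, the genes that rose were Csf1 and Csf1r in both mutants and Csf2rb and Csf2rb2 in TrbE10. Of 19 such cytokine and receptor genes 14 were measured, and 4 were called higher in TrbE10 and 2 in TrbE14, with no gene called lower, beside 2.15% and 0.76% of all gene names. Their median log2 change was 0.46 in TrbE10 and 0.27 in TrbE14 hearts. Lif, Osm, Tslp, Csf2 and Csf3, all ligands, were on no array.

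Csf1r, the receptor that macrophages need, and its ligand Csf1 were called in both mutants. The brightest of 3 Csf1r probes had log2 signals of 12.15 to 12.43 in controls, 13.26 to 13.48 in TrbE10 and 13.10 to 13.23 in TrbE14, with changes of 1.14 (SE 0.08, adjusted p = 1.12e-04) and 0.92 (SE 0.08, adjusted p = 6.07e-04). The groups did not overlap on this probe. A second Csf1r probe was also called (1.11, adjusted p = 0.00237, and 0.91, adjusted p = 0.0114), whereas the third was not (0.70, adjusted p = 0.0619, and 0.46, adjusted p = 0.273). Csf1 was called through a probe with 6.83 to 6.93 in controls, 7.52 to 7.82 in TrbE10 and 7.47 to 7.59 in TrbE14, with changes of 0.84 (adjusted p = 5.22e-04) and 0.63 (adjusted p = 0.00465). A second probe of the same transcript was also called (0.82 and 0.55). The brightest Csf1 probe, of another transcript and with a mean of 10.44 in controls, was not called. Its changes were 0.45 (adjusted p = 0.437) and 0.08 (adjusted p = 0.910).

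The member Il34 is the other ligand of Csf1r, and it was singled out after its values were seen. It had log2 signals of 8.20 to 8.68 in controls, 8.30 to 8.90 in TrbE10 and 8.39 to 8.90 in TrbE14, and its groups overlapped. Its changes were 0.15 (SE 0.17, adjusted p = 0.708) and 0.17 (SE 0.17, adjusted p = 0.671). The difference between Il34 and Csf1 was not tested.

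The receptor chains used by Il3, Il5 and Csf2 were on average higher in the mutants, while these ligands were on no array. Csf2rb, the common beta chain, rose by 0.83 (SE 0.17, adjusted p = 0.0402) and Csf2rb2, a mouse beta chain that serves Il3, by 1.17 (SE 0.25, adjusted p = 0.0459) in TrbE10. In TrbE14 the changes were 0.34 (adjusted p = 0.407) and 0.83 (adjusted p = 0.205). Csf2ra, the Csf2 receptor alpha chain, had 0.47 (adjusted p = 0.0529) and 0.30 (adjusted p = 0.272), and Il5ra was on no array. Csf2rb and Csf2rb2 are close copies, so their probes may share signal and the 2 calls are uncertain as separate results. A second Csf2rb probe had a change of 0.39 (adjusted p = 0.456) in TrbE10, and a second Csf2rb2 probe, on no control array above background, was not called either (adjusted p = 0.0597).

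The calls of Csf2rb and Csf2rb2 in TrbE10 did not hold in a fit of TrbE10 and control alone, without a filter or with the replicate number as a block, where 2 genes of these lists, Csf1 and Csf1r, were called. With an array left out, the count was 2 without TrbE10 replicate 3, TrbE14 replicate 1, 2 or 4 or control replicate 1, 3 or 4. Without TrbE10 replicate 1 or 4 both calls were also lost and the count was 3, with Csf2ra or Lifr called in their place. Without control replicate 2 the call of Csf2rb2 was lost, and without TrbE10 replicate 2 the count was 6, with Cntfr and Stat5b added. Csf1 and Csf1r were called with every array left out.

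**Figure D5:**
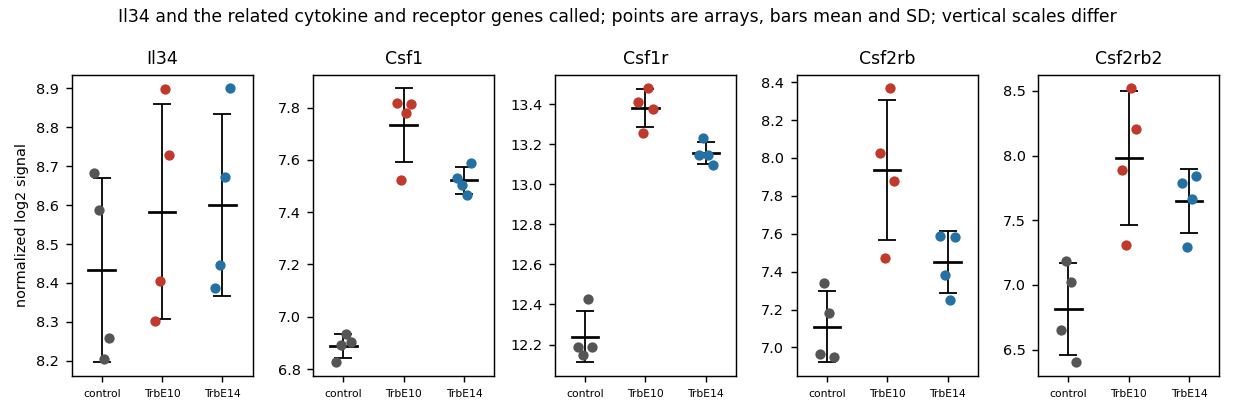
Normalized log2 signal (vertical axis, its range differs between panels) on each array (points) by group, with mean (line) and SD (bar) of 4 arrays, for Il34 and the 4 related genes called in TrbE10. Csf1r lies at 12.15 to 12.43 in controls and at 13.10 or higher in every mutant array, whereas the groups of Il34 overlap. Csf1 is shown with a called probe that is not its brightest.

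Among the lists of immune cells, markers of macrophages, mast cells and neutrophils had medians above control in both mutants. Those of T and innate lymphoid cells and of B cells had medians above control in TrbE10 alone. Of 4 measured neutrophil genes, 2 had a mean above control in TrbE10 and 3 in TrbE14. The summed linear signal of the neutrophil list was 29214 to 36153 in controls. In the mutants it lay within that range, at 31254 to 33078 in TrbE10 and 33112 to 35490 in TrbE14. Of 16 macrophage markers, a list that includes Csf1r, all 16 were measured and 14 had a mean above control in each mutant, with medians of 0.54 in TrbE10 and 0.24 in TrbE14. In TrbE10 6 were called higher, Csf1r, Fcgr1, C1qa, C1qc, Cd68 and Itgam, the last through a probe other than its brightest, and in TrbE14 1, Csf1r, beside 2.15% and 0.76% of all gene names. The summed linear signal of the list was 20543 to 23488 in controls, 28748 to 33855 in TrbE10 and 26194 to 29686 in TrbE14. Of 8 mast cell markers 6 were measured, with medians of 0.91 and 0.81 and a summed signal of 297 to 420 in controls, 447 to 1450 in TrbE10 and 571 to 1014 in TrbE14. Cpa3, a mast cell protease, was called in both mutants (2.61, adjusted p = 0.00505, and 2.33, adjusted p = 0.0161). Its controls, at 2.45 to 3.43, lay below the lowest signal well above background on their arrays. Cpa3 thus passed the filter through the mutants alone, and the size of its change is uncertain. Fcer1a and Ms4a2, chains of the IgE receptor, were on no array. The part of these cells in the receptor signals was not tested.

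Other cell types were measured in the same way, and their calls stand beside the same shares of all gene names. Of 9 fibroblast markers 8 had a mean above control in each mutant, with medians of 0.46 and 0.43, and Dcn was called in both (0.39 and 0.50). Of 9 endothelial markers 8 were above control in each, with Vwf called in both (1.09 and 1.03) and Eng in TrbE10 (0.71). The B cell list had 4 of 6 and the neutrophil list 4 of 8 genes measured, with 0 called by limma in either mutant. At an unadjusted p under 0.05 there were 1 and 2 B cell genes and 0 and 1 neutrophil gene. Median changes in TrbE10 and TrbE14 were 0.12 and -0.12 for B cell genes and 0.29 and 0.19 for neutrophil genes. Among 5 atrial markers Bmp10 was called in both mutants (4.27 and 4.45) and Sln in TrbE10 (3.80). Of the 5, 3 had a mean above control in TrbE10 and 4 in TrbE14, with medians of 2.07 and 1.65. The Bmp10 controls, at 2.35 to 2.37, lay below the lowest signal well above background on their arrays. The size of its change is therefore uncertain. Among 9 ventricular markers Myh7 was called in both mutants (3.05 and 2.46). Of the 9, 4 had a mean above control in each mutant, with medians of -0.04 and -0.03. Of 6 adipocyte markers 5 were measured and 0 called by limma, with medians of -1.27 and -0.41 and 2 and 0 genes at an unadjusted p under 0.05.

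Genes that signal downstream of these receptors had small median changes. Of 17 genes of the JAK-STAT pathway 15 were measured and 0 were called by limma in either mutant, with medians of 0.07 in both and 5 and 2 genes at an unadjusted p under 0.05, beside 19.8% and 16.6% of all gene names. With 2.15% and 0.76% of all gene names called, a count of 0 among so few genes lies near the background. Socs3, an inhibitor that Il6-type cytokines induce, was not called and was singled out with its values known. Its changes were 0.86 (adjusted p = 0.207) and 1.02 (adjusted p = 0.214). Of 20 genes of MyD88 and inflammasome signalling 19 were measured and 0 were called by limma in either mutant, with medians of 0.12 and 0.09 and 3 and 4 genes at an unadjusted p under 0.05, and Nlrp3, an inflammasome sensor, was on no array. SAM called none of the genes of these 2 pathways in TrbE10 and Jak3 in TrbE14, where its 3 calls among signalling and related genes were Csf1, Csf1r and Jak3, the kinase that works with the common gamma chain.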

How the data were processed

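The authors deposited per array what Agilent Feature Extraction 10.5 wrote, where the processed signal is a background-subtracted intensity on a linear scale. Another deposited file holds their log2 values, already quantile normalized and filtered on background. Here control spots and spots marked as outliers were removed, the processed intensity was brought to the log2 scale, arrays were quantile normalized and spots of a probe were averaged, using limma 3.58.1 (R 4.3.3, with the data.table package at version 1.17.8). Plots were made with matplotlib 3.10.9 under Python 3.11.15. Probes well above background on at least 3 of 4 arrays of any group (24593 probes, 18021 gene names) entered a linear model with a mean per group. The software found 22888 to 26155 probes well above background on an array, and precision is limited by 4 arrays per group. The study's methods call the controls littermates, and which mice shared a litter is not given in the sources used here.

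Adjusted p-values are limma's, corrected after Benjamini and Hochberg over all filtered probes of a comparison. A gene was called when any filtered probe had an adjusted p under 0.05, and its value is that of its filtered probe with the highest mean. Csf1 is the exception, given first through a dimmer, called probe. Fold bounds were taken against the lowest signal well above background on each array, or against the probe's own signal where that was higher. In data simulated from these arrays for TrbE10 against control, 63% of changes of 1 and 90% of changes of 2 on the log2 scale were recovered among 200 changed of 24586 probes, with 8 false calls. The changed probes were drawn from all filtered probes. Interleukin genes had a larger median SD (0.305 against 0.207), so these shares may be too high for them.

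Genes given by name are Il6, Il1b, Il33, Il1rl1, members called or not overlapping with control, members above background on 3 arrays of 1 group and on none of another, partners of these, and called genes of the lists. Members, lists and rules were chosen with earlier results of these data known, and the lists came from general knowledge of pathways and markers. A gene of the lists is not reported here and was left out of their counts. Of 105 probes, 98 matched a RefSeq accession, for 82 genes. Alternatives were the 75th percentile as scale, normexp (offset 50), a filter on 9 of 12 arrays or none, the authors' values, 2 groups only, a replicate block, Y-linked signal as covariate, SAM (false discovery rate 5%) and leaving out each array.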

Additional observations from a re-analysis of the deposited data

Results flagged for a closer look

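Among 90 groups of 4 arrays (30 measured interleukin genes in 3 groups), 3 held an array whose gap to the nearest other array took up more of the group's range than Dixon's 95% limit, and chance alone gives this in about 1 in 20 such groups. For Il1rl1, control replicate 1 stood above the other controls, with a gap of 0.885 of the range, and without it the log2 change was 0.65 in TrbE10 and 0.61 in TrbE14 hearts, still without a call. For Il10ra, control replicate 1 stood below the other controls, with a gap of 0.891 of the range, and without it the change was 0.51 in TrbE10 and 0.15 in TrbE14. For Il10rb, control replicate 3 stood above the other controls, with a gap of 0.858, and without it the change was -0.19 in both mutants.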

How the results depend on the processing

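The 1 interleukin gene called in TrbE10 became 0 in the fit of 2 groups, without a filter and with the replicate block, and was 0 to 1 with an array left out. It was 1, Il17re, under SAM, scaling to the 75th percentile, normexp, the filter on 9 of 12 arrays, the authors' values and the Y-linked covariate. The related and signalling genes called in TrbE10 numbered 4, and 2 to 6 over the alternatives that kept all arrays. They were 2 in the fit of 2 groups, without a filter and with the replicate block. With an array left out they were also 2 to 6, with 6 without TrbE10 replicate 2. In TrbE14 SAM called 3 in place of 2, and 2 were called with each array left out. The count of interleukin genes called in TrbE14 and between the mutants was 0 under every alternative. Replicate numbers did not meet the rule for pairing, a correlation over 0.1 in every pair: same-numbered arrays of TrbE10 and control deviated with correlations of -0.19 to 0.08 and those of TrbE14 and control of -0.24 to -0.03. Those of the 2 mutants had 0.37, 0.31, -0.01 and 0.48, and in 3 of 4 pairs the TrbE10 array correlated best with its own number, a hint from the data and not part of the labelled design. With the block 0 interleukin genes were called between the mutants. With the replicate block the adjusted p of Il17re in TrbE10 was 0.0643.

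No named gene with a call changed direction. Of 589 values of named genes against control under the alternatives, 571 kept their sign, and those that did not were uncalled. The median over the 30 genes in TrbE14 was -0.05 to 0.07, with a sign that changed with the scaling, and in TrbE10 0.05 to 0.12. Interleukin genes above background numbered 28, 26 and 26 when all 4 arrays were required and 32, 33 and 37 when 1 sufficed. Signal near background limits most ligands. The causes were not tested.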
